A study of Mus musculus with 6 samples.

Results

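The galectin genes Lgals1, Lgals2, Lgals3, Lgals4, Lgals8 and Lgals9, and Lgals3bp, which encodes a galectin-binding glycoprotein, were examined in EGFR inhibitor-resistant and parental mammary cells. These are 7 of the 19938 genes with a value. They were chosen by their gene names with earlier results of the same comparison known, and each was read from the brightest probe set that carries no other symbol. Every one of them had 1 such probe set. Their differences between the cell lines are therefore given as a description, without a test.
Global gene expression was measured in total RNA on Affymetrix Mouse Gene 1.0 ST arrays, 3 for NME cells and 3 for AGR cells. NME cells are NMuMG cells, a normal murine mammary gland line, that overexpress EGFR after viral transduction, and are sensitive to AG1478, a kinase inhibitor of EGFR. AGR cells carry the same EGFR transgene and descend from 1 colony that grew out of NME cells in 3D culture with 1 µM AG1478. They were picked, expanded in 2D culture and kept without drug, so they stand for 1 clone. Mouse strain, age and separate cultures are not stated for the arrays, so a p-value here reflects how far these arrays scattered, which may be technical.

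Galectins are lectins that bind β-galactosides, the galactose-containing ends of sugar chains on glycoproteins and glycolipids. They are made in the cytosol, leave the cell by a route outside the classical secretory pathway, and cross-link glycoproteins at the surface. Galectin-1 and galectin-2 are of the prototype class with a single carbohydrate-recognition domain, galectin-3 is a chimera with an added tail, and galectin-4, galectin-8 and galectin-9 hold domains in tandem. Galectin-2 and galectin-4 are known mainly from the epithelium of the gut, whereas galectin-1 and galectin-3 are made by many cells.

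The promoters of the genes that differed most are shown first, since Lgals4 and Lgals2 had the largest differences and Lgals9 and Lgals3bp were both lowest on the same AGR array. Each window holds the 250 bases before a transcript start in RefSeq (build GRCm38.p6), and 6 of the 7 genes had a window there. The Lgals4 window lies inside the RefSeq span of its gene, which starts at 28833122. The Lgals8 window does too, as that gene is on the minus strand and its span ends at 12464977. The bases before these outer starts were not read. Capitals mark matches on either strand to 3 short motifs, which were picked after the sequences had been seen: TTTAT, the core of CDX sites, CAAAG, one side of an HNF4 site, and AANNGAAA, the core of IRF sites.
Lgals4, chr7:28833544-28833793, plus strand: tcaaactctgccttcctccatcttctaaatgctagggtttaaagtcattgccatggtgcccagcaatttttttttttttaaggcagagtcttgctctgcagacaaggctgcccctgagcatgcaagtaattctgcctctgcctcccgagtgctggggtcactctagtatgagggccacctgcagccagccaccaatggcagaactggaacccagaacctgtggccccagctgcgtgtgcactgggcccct
Lgals2, chr15:78855530-78855779, minus strand: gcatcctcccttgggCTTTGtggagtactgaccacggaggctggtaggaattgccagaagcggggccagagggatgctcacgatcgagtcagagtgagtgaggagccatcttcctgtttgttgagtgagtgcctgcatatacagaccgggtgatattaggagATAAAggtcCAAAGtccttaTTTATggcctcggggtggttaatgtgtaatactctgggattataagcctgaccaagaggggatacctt
Lgals9, chr11:78984925-78985174, minus strand: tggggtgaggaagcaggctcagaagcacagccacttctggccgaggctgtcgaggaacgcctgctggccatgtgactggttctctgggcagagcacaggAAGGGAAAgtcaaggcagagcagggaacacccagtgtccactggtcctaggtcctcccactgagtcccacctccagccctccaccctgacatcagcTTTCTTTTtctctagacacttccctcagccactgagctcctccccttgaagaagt
Lgals3bp, chr11:118401960-118402209, minus strand: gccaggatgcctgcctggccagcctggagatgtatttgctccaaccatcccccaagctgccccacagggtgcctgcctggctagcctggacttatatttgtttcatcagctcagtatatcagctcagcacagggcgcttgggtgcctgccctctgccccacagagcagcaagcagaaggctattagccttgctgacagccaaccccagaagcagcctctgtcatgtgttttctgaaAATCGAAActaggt
No match was found in the Lgals4 window, which does not cover the bases before the outer start of that gene. The Lgals2 window held TTTAT starting 68 bases before the transcript start and its reverse complement at 88 bases, and CAAAG at 79 bases and its reverse complement at 235 bases. The Lgals9 window held AANNGAAA at 151 bases and its reverse complement at 55 bases, and the Lgals3bp window held AANNGAAA at 14 bases. Of the windows not shown, that of Lgals8 held CAAAG at 165 bases and that of Lgals3 held no match. Among the windows of 32851 promoters, 37.3% held TTTAT, 48.6% held CAAAG and 21.3% held AANNGAAA. No 2 matches overlapped in these windows, and a match is a description of the letters, not of binding.

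Lgals4 and Lgals2, the galectins typical of gut, had much lower signals in AGR cells. Lgals4, whose product carries glycoproteins to the apical surface of enterocytes, had log2 intensities of 12.75, 12.67 and 12.76 on the NME arrays and of 7.08, 7.17 and 7.13 on the AGR arrays. Every AGR array thus lay far below every NME array. The group means of 12.73 ± 0.05 (SD, n = 3) for NME and 7.13 ± 0.04 (SD, n = 3) for AGR gave a 48.5-fold difference, or a log2 fold change (FC) of -5.60. Of all genes with a value, only 1 had a more negative log2 FC, which was Alb at -6.36. On the linear scale the signal went from between 6498 and 6954 to between 135.7 and 144.0. The AGR level was under the array-wide median (7.61, the median log2 intensity over every probe set), and no detection calls come with these arrays, so a remaining signal cannot be told apart from background and the FC may be understated. The annotation of this probe set also lists a transcript that is not among the RefSeq transcripts used here. Lgals6, a close copy of Lgals4 in some mouse strains, had no probe set of its own, so its part in the Lgals4 signal was not tested.
Lgals2 had log2 intensities of 12.88, 12.79 and 12.80 in NME cells and 10.83, 10.61 and 10.93 in AGR cells. The groups did not overlap, but unlike Lgals4 the gene stayed above the array-wide median in AGR cells. The means of 12.82 ± 0.05 (SD, n = 3) and 10.79 ± 0.16 (SD, n = 3) gave a 4.10-fold difference and a log2 FC of -2.03. In bulk RNA, fewer cells that express a gene and less RNA per cell cannot be told apart.

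**Figure D1:**
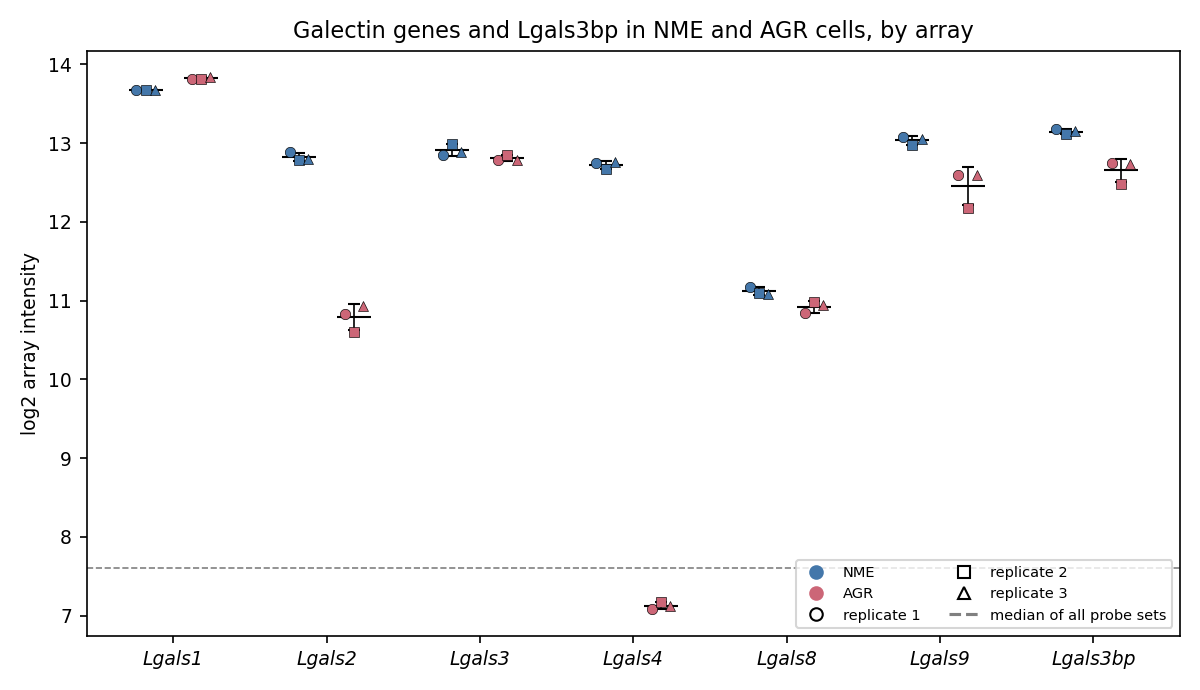
Log2 array intensity (y axis) of the 6 galectin genes and Lgals3bp on each array, with NME in blue and AGR in red, a marker shape for each replicate, and bars for the mean and SD of 3 arrays. Mean Lgals4 went from 12.73 to 7.13, under the array-wide median (dashed line, 7.61), and mean Lgals2 from 12.82 to 10.79, whereas the mean of Lgals1 differed by 0.15 and that of Lgals3 by -0.10.

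The signals of the widely expressed galectins differed little between the lines. Lgals1, which encodes galectin-1, a ligand of integrins and of neuropilin-1, had log2 intensities of 13.68, 13.68 and 13.67 in NME cells and of 13.82, 13.81 and 13.84 in AGR cells. It was the only one of the 7 genes with all AGR arrays above all NME arrays. The log2 FC was 0.15, a 1.11-fold difference, and the SD was 0.0022 (NME) and 0.01 (AGR). Lgals1 was brighter than nearly all genes, at percentile 99.78 in NME cells and 99.89 in AGR cells. Lgals3, described next, lay at 98.65 and 98.48. Whether such bright signals still follow the amount of RNA was not tested.
Lgals3, which encodes galectin-3, had log2 intensities of 12.85, 13.00 and 12.89 in NME cells and 12.79, 12.85 and 12.79 in AGR cells. This was the only gene of the 7 whose groups overlapped, with a log2 FC of -0.10 and an SD of 0.08 (NME) and 0.03 (AGR). The groups no longer overlapped without NME replicate 1 (log2 FC -0.13) or without AGR replicate 2 (log2 FC -0.12), and without NME replicate 2 the log2 FC was -0.06.
Lgals8, whose product marks endosomes and lysosomes with broken membranes, had log2 intensities of 11.18, 11.09 and 11.09 in NME cells and 10.84, 10.98 and 10.94 in AGR cells. The AGR arrays lay below the NME arrays by a small margin, with a log2 FC of -0.20, a 1.15-fold difference.

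Lgals9 and Lgals3bp, both known as interferon-inducible genes, were lower in AGR cells by less than 2-fold, and differed between the AGR arrays. Lgals9, which encodes galectin-9, had log2 intensities of 13.08, 12.97 and 13.05 in NME cells and 12.59, 12.18 and 12.60 in AGR cells. AGR replicate 2 was the lowest array for this gene, and the SD was 0.24 in AGR cells and 0.06 in NME cells. The log2 FC of -0.58, a 1.49-fold difference, became -0.44 without AGR replicate 2.
Lgals3bp had log2 intensities of 13.18, 13.11 and 13.15 in NME cells and 12.74, 12.49 and 12.73 in AGR cells. Here too AGR replicate 2 was lowest, with an SD of 0.15 in AGR cells and 0.03 in NME cells. The log2 FC was -0.49, a 1.41-fold difference, and was -0.41 without AGR replicate 2. This array stood apart more widely, as 36 genes on it were more than 2-fold away from their mean on the remaining AGR arrays, compared with 7 genes for AGR replicate 1 and at most 1 gene for each other array. AGR replicate 2 was also the lowest array for Lgals2, whose log2 FC without it was -1.94.

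**Figure D2:**
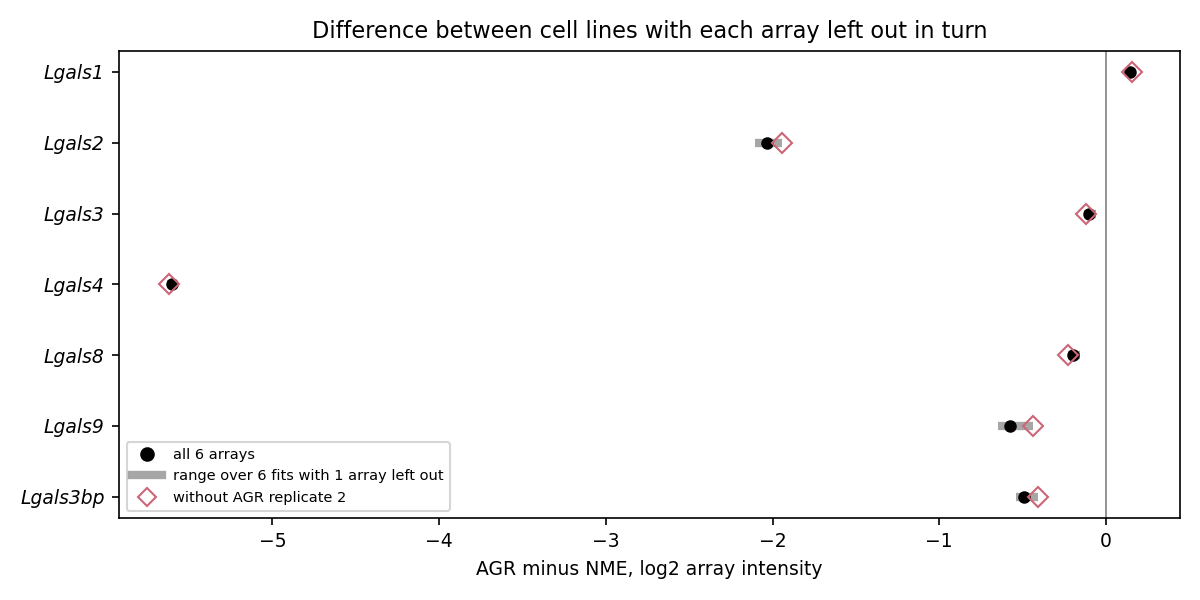
Difference between AGR and NME cells in log2 array intensity (x axis) for each gene (y axis), with all 6 arrays (black points), the range over the 6 fits that leave out 1 array (gray bars) and the fit without AGR replicate 2 (red diamonds). Lgals4 stayed between -5.63 and -5.58, and Lgals9 ranged most widely, from -0.65 to -0.44.

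Of the 7 genes, 6 had AGR arrays that did not overlap with the NME arrays, 5 of them lower and 1 higher in AGR cells. Over all genes 36.4% were without overlap in either direction. A difference above 2-fold without overlap was found for 2 of the 7, Lgals4 and Lgals2, and for 3% of all genes. As the genes were chosen with this comparison known, nothing is read from these counts. The median log2 FC of the 7 genes was -0.49, and that of all genes was -0.017. In order of their log2 FC the genes ran from Lgals4 through Lgals2, Lgals9, Lgals3bp, Lgals8 and Lgals3 to Lgals1. Lgals9 and Lgals3bp differed from each other in log2 FC by less than the SD of either gene in AGR cells.
Further genes of the galectin family were read from the same fit. Lgalsl, which encodes a galectin-related protein without known sugar binding, passed the test as higher in AGR cells (log2 FC 0.25, adjusted p = 0.0144 from limma, and 0.0595 without AGR replicate 3). Lgals7, Lgals12 and Grifin, a galectin-like gene of the lens, did not pass the test, with log2 FCs of -0.10, -0.10 and -0.07. Of these, Lgals12 lay under the array-wide median in both lines.

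The genes beside Lgals4 and Lgals2 on the chromosome had smaller differences, as did most genes. By size of decrease, Lgals4 ranked 2 and Lgals2 ranked 77 of 19938 genes. Lgals4 lies next to Lgals7 on chromosome 7, and Lgals7 had means of 8.41 and 8.31. Among the 5 measured genes on either side of Lgals4 in RefSeq order, 8 of 10 did not pass the test, where 24.2% of all genes passed it in either direction. Ech1, a peroxisomal enzyme gene on the other side of Lgals4, fell with a log2 FC of -0.66 (adjusted p = 2.39e-04 from limma), and the actin cross-linker gene Actn4 rose with a log2 FC of 0.37 (adjusted p = 0.00258 from limma). Both were named after their values were seen.
Lgals2 and Lgals1 lie 4 measured genes apart on chromosome 15 and differed in opposite directions. Among the 10 measured neighbours of Lgals2, Sh3bp1, which lies between them, was higher with a log2 FC of 0.86, and Card10 was higher with a log2 FC of 0.51 (adjusted p of 1.89e-04 and 3.58e-04 from limma). These were likewise named after their values were seen. Of the remaining neighbours, 7 did not pass the test, and Lgals1 is described above without one.

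**Figure D3:**
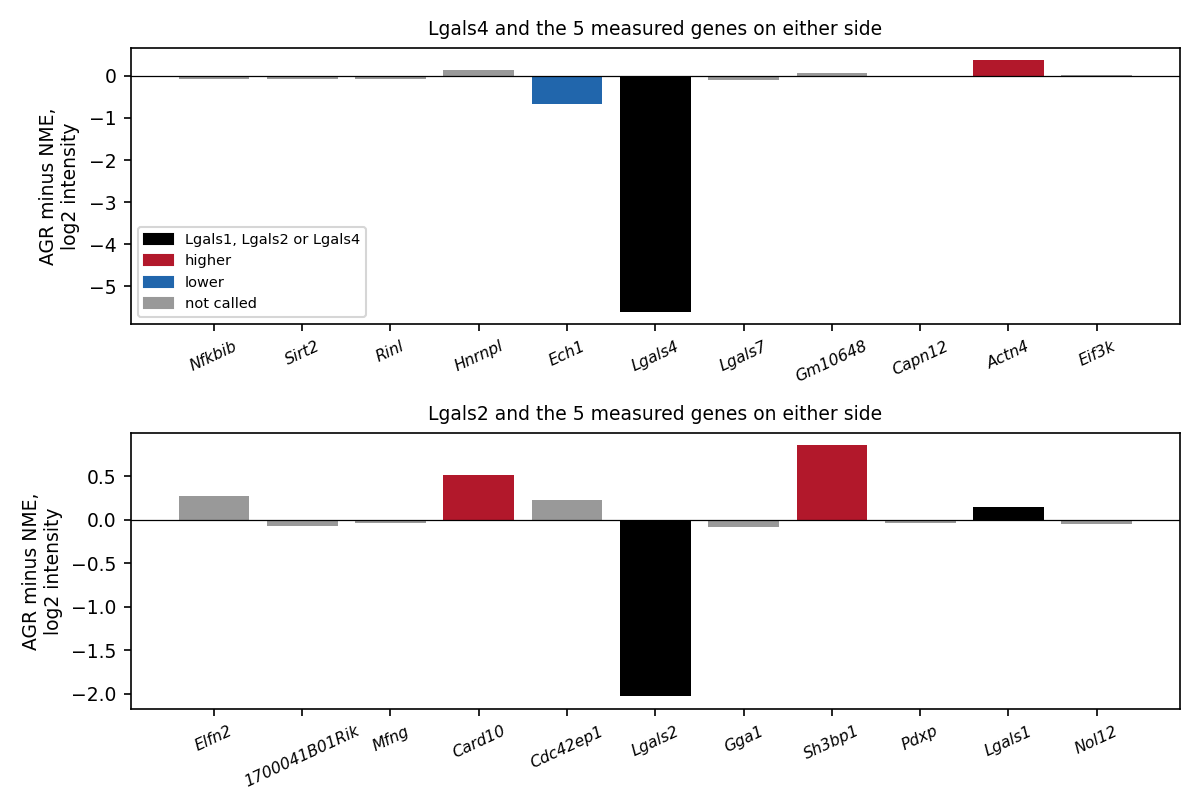
Difference between AGR and NME cells in log2 array intensity (y axis) of Lgals4 and of Lgals2, each with the 5 measured genes on either side in RefSeq order (x axis, not to scale). The galectins described here are in black, and other genes in red or blue where they were higher or lower at an adjusted p under 0.05. Lgals4 at -5.60 stands beside Ech1 at -0.66 and Lgals7 at -0.10, and Lgals2 at -2.03 beside Lgals1 at 0.15.

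The genes whose values over the 6 arrays were most like those of Lgals4, Lgals2 and Lgals9 were then looked up by Euclidean distance, after each gene was centred on its own mean. This compares 16944 named genes over the same 6 arrays. It is a description only, since all genes share these arrays. The values were not scaled, so nearness rests largely on a difference of like size. Nearest to Lgals4 were Cyp2c68, Serpina1c, Ttr, Alb and Agmo, at distances of 0.386 to 1.14. All of them ended under the array-wide median in AGR cells, at 4.76 to 7.44, as Lgals4 did. The size of their FCs, and so this ranking, is therefore uncertain. Several of them are known from liver, such as Ttr, which encodes the thyroxine carrier transthyretin, and Alb, which encodes albumin. Ttr went from a log2 intensity of 12.56 to 7.44 and Alb from 13.06 to 6.71. Cyp2c68 and Serpina1c have close relatives in the genome, and whether transcripts of those relatives add to their signal was not tested.
Nearest to Lgals2 were Chpt1, Slc26a2, Vnn1, Ptpru and Ocln, at distances of 0.149 to 0.231. Among them the sulfate transporter gene Slc26a2 had a log2 FC of -1.95, the pantetheinase gene Vnn1 of -2.05 and the tight junction gene Ocln of -1.96. Nearest to Lgals9 were Cyb5a, Zfp395, Amot, Lilra6 and B4galnt1, at distances of 0.0533 to 0.106, with log2 FCs of -0.60 to -0.51. Their SD in AGR cells ran from 0.20 to 0.27, as the low value on AGR replicate 2 was part of the pattern. Lilra6 lay under the array-wide median in both lines.

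**Figure D4:**
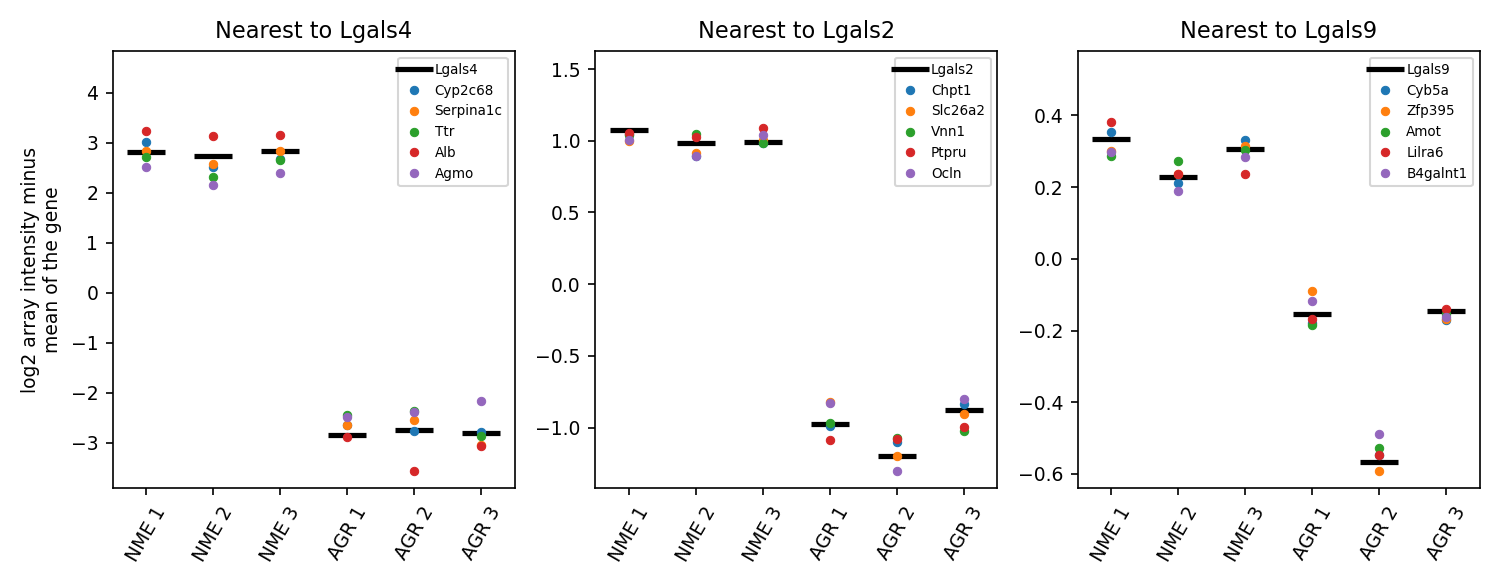
Log2 array intensity minus the mean of the gene (y axis) on each array (x axis) for Lgals4, Lgals2 and Lgals9 (black bars) and the 5 genes nearest to each (colored points). As these genes were picked by likeness, those near Lgals9 share its low value on AGR replicate 2 by selection. The genes near Lgals4 had log2 FCs of -4.70 to -6.36.

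Some genes that mark the gut, and most of those that mark the liver, were lower in AGR cells, as Lgals4 and Lgals2 were. Of 18 gut epithelium markers, 6 passed the limma test as lower (adjusted p under 0.05) and 0 as higher, where 11.6% of all genes were lower and 12.6% were higher. At an unadjusted p under 0.05, 8 were lower and 1 was higher, and the methods' two-sided test called 5 lower and 0 higher. The microvillus gene Vil1 fell with a log2 FC of -1.28, Krt20 with -0.80, Fabp2 with -0.61, Tff3 with -0.49, Cdh17 with -0.48 and the transcription factor gene Cdx2 with -0.36. The call of Tff3 was lost without any one of the NME arrays (adjusted p up to 0.0532). Tff3 had the same value on every NME array (SD 0). Cdx2 was dim, with a mean of 7.95 in NME cells and of 7.60 in AGR cells, just under the array-wide median. Fabp2 lay under the array-wide median in both lines, as did 10 of the 18, among them Sis, Lct, Alpi and Muc2, which define mature gut cells. The summed intensity of the list was 14881 to 15734 on the NME arrays and 9833 to 10225 on the AGR arrays. This sum rested mainly on Cdh17, Krt20 and Vil1, with mean log2 intensities of 12.5, 12.0 and 11.3 in NME cells. The next brightest marker, Cdx1, averaged 8.8 there. Across all 18 markers, log2 FCs had a median of only -0.09, so the lower sum does not describe the list as a whole. Whether the lower gut markers have a part in the lower Lgals4 and Lgals2 was not tested.
Of 12 measured hepatocyte markers, 9 were lower and 1 was higher. Hnf4a, a nuclear receptor that drives genes of gut and liver, averaged 13.17 ± 0.02 (SD, n = 3) on the NME arrays and 11.96 ± 0.05 (SD, n = 3) on the AGR arrays, and passed the test as lower (log2 FC -1.21, adjusted p = 8.49e-06 from limma). Fgb, Apoa1 and Ambp were lower too, with log2 FCs of -3.03, -1.54 and -1.14. Fgb and Ambp, like Alb and Ttr, ended under the array-wide median, so the size of their FC is uncertain. The exception, Apob, named after its values were seen, rose with 0.84. The summed intensity of this list was 44277 to 46646 on the NME arrays and 19472 to 21257 on the AGR arrays. Its median log2 FC was -1.09, compared with -2.03 for Lgals2 and -5.60 for Lgals4. The part of this change in that of the galectins was not tested.
The labelled cell type was checked in the same way. The epithelial genes Krt8, Krt18, Krt19 and Cdh1 had log2 intensities of 13.44 to 14.23 in NME cells and 12.40 to 14.13 in AGR cells, where Krt19 was lower with a log2 FC of -1.04 and Cdh1 with -0.60. Gata3, a luminal transcription factor gene, was higher with 0.56. It had the same value of 8.21 on every NME array (SD 0), and its call was lost in the methods' two-sided test. Epcam, Elf5, Krt5, Krt14, Esr1 and Csn2 lay under the array-wide median in both lines. Of 12 macrophage markers, a cell type rich in galectin-3, 9 lay under this median in both lines, including Ptprc, Adgre1 and Lyz2, and the summed intensity of the list was 4694 to 5000 on the NME arrays and 3668 to 4218 on the AGR arrays. Without Cd14, which made up most of that sum, it was 1537 to 1580 on the NME arrays and 1791 to 1841 on the AGR arrays. Cd68 and Csf1r were higher with log2 FCs of 0.96 and 0.28, and Cd14 was lower with -0.60, where the call of Csf1r was lost without any one of 5 arrays (adjusted p up to 0.122). Of 10 fibroblast markers, a cell type rich in galectin-1, Pdgfra was higher with a log2 FC of 0.39 and the others did not pass the test, with a summed intensity of 1821 to 2001 in NME cells and 1859 to 1981 in AGR cells.

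The enzymes that build the sugar chains bound by galectins were read next. Galectins bind N-acetyllactosamine, which is most abundant on N-glycans with many branches, and sialic acid on its end can block binding. Of 32 measured enzymes in 3 lists, 11 passed the limma test as higher in AGR cells and 8 as lower, or 59.4% called, where 24.2% of all genes were called. Only 4 of the 32 lay under the array-wide median in both lines, whereas all genes include dim ones. The shares are therefore not like for like. With genes below that median left out, a new fit with its own adjustment called 4784 genes, compared with 4819 over all genes. These need not be the same calls, so they do not give the share of dim genes called. The median log2 FC was -0.05, and of the 19 calls only Mgat4a exceeded a FC of 2. The split between directions turned without AGR replicate 2 (9 higher and 10 lower) and without NME replicate 2 (6 higher and 8 lower).
The enzymes of N-glycan trimming and branching had a median log2 FC of 0.26, with 7 of 12 higher and 2 lower. Mgat5, which adds the β1,6 branch favored by galectin-3, rose from 10.07 ± 0.01 to 10.38 ± 0.08 (SD, n = 3 each), with log2 FC 0.31 (adjusted p = 0.00491 from limma). The mannosidase genes Man2a2, Man1a2 and Man2a1 had log2 FCs of 0.61, 0.44 and 0.23, the core fucosyltransferase gene Fut8 of 0.34, and Mgat1, which starts the first branch, of 0.30. In contrast, Mgat4a, another branching enzyme gene, fell from 8.41 ± 0.13 to 6.89 ± 0.16 (SD, n = 3 each), with log2 FC -1.53 (adjusted p = 1.03e-04 from limma), and Man1a fell with -0.61. Mgat4a ended under the array-wide median. Mgat4b, which encodes an enzyme for the same step and was named after its values were seen, rose from 10.39 ± 0.06 to 10.69 ± 0.07 (SD, n = 3 each), with log2 FC 0.30 (adjusted p = 0.00841 from limma). The call of Man2a1 was lost without any one of 5 arrays (adjusted p up to 0.115), and those of Mgat1 and Fut8 without any one of 4 (adjusted p up to 0.11 and 0.0647). All 3 were also lost in the methods' two-sided test. Mgat3, also named after its values were seen, did not pass the test (log2 FC -0.51, adjusted p = 0.0514 from limma). The AGR arrays all lay below the NME arrays for this gene. It stayed without a call in 9 of 16 alternatives and passed as lower in the others.
Of 12 measured enzymes that extend N-acetyllactosamine or start O-glycan cores, 4 were lower and 0 were higher in limma, with a median log2 FC of -0.21. The lower ones were Gcnt4 (log2 FC -0.55), B4galt4 (-0.44), Gcnt3 (-0.39) and B4galt3 (-0.31). At an unadjusted p under 0.05, 6 were lower and 1 was higher, and the methods' two-sided test called 1 lower and 0 higher. The 1 higher at the unadjusted p was B4galt1, named after its values were seen. B4galt1 went from 11.14 ± 0.09 to 11.38 ± 0.09 (SD, n = 3 each), with log2 FC 0.23 (adjusted p = 0.0522 from limma). It stayed without a call in 10 of 16 alternatives and passed as higher in the others, such as quantile normalization. B4galt4 and Gcnt4 lay under the array-wide median in both lines. The calls of B4galt3 and B4galt4 were each lost without NME replicate 1, NME replicate 3, AGR replicate 1 or AGR replicate 3, with adjusted p up to 0.089 and 0.0697.
Of 8 measured genes for enzymes that add or remove sialic acid, 4 were higher and 2 were lower. The α2,3-sialyltransferase gene St3gal2 rose from 10.12 ± 0.08 to 10.89 ± 0.04 (SD, n = 3 each), with log2 FC 0.77 (adjusted p = 1.49e-04 from limma). St3gal1 (log2 FC 0.28), St3gal6 (0.23) and St6gal1 (0.20), whose α2,6-linked sialic acid blocks galectin-1 binding, were higher as well, whereas St3gal4 (-0.30) and the sialidase gene Neu1 (-0.23) were lower. The calls of St6gal1, St3gal6 and Neu1 were each lost without any one of 5 arrays, with adjusted p up to 0.0934, 0.126 and 0.0985, and that of St3gal6 also with the replicate number as a block. The number of enzymes called in the 3 lists together was 12 without NME replicate 1, without NME replicate 3 and without AGR replicate 3.

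Glycoproteins known to bind galectins differed in either direction. Of 33 measured, 11 were higher and 7 were lower, or 54.5% called, where 24.2% of all genes were called, 12.6% as higher and 11.6% as lower. Of the 33, 6 lay under the array-wide median in both lines, so the share over all genes, with its dim ones, is again not like for like. The median log2 FC was 0.05, and 7 of the 18 calls exceeded a FC of 2. Nrp1 and Cdh2 were known from the study's own work on these cells, so their direction is not independent evidence. Nrp1, to which galectin-1 binds, rose from 8.84 ± 0.22 to 10.98 ± 0.24 (SD, n = 3 each), with log2 FC 2.15 (adjusted p = 1.33e-04 from limma). Havcr2, which encodes the galectin-9 receptor TIM-3, rose from 6.42 ± 0.10 to 8.44 ± 0.47 (SD, n = 3 each), with log2 FC 2.02 (adjusted p = 8.34e-04 from limma). Its NME level was under the array-wide median. Its transcript was higher in the AGR cells in which Lgals9 was lower. The integrin genes Itga5 and Itgb1 had log2 FCs of 1.64 and 0.77, and Cdh2 of 1.60.
The collagen-binding integrin gene Itga1 fell from 9.66 ± 0.03 to 6.71 ± 0.25 (SD, n = 3 each), with log2 FC -2.94 (adjusted p = 1.27e-05 from limma), and ended under the array-wide median. The galectin-3 ligand gene Muc1 fell from 11.79 ± 0.18 to 9.97 ± 0.10 (SD, n = 3 each), with log2 FC -1.82 (adjusted p = 4.32e-05 from limma). Itgb4 and Alcam, a galectin-8 ligand, had log2 FCs of -0.66 and -0.62. Egfr encodes a glycoprotein bound by galectin-3. Its signal averaged 12.31 ± 0.07 on the NME arrays and 12.54 ± 0.19 on the AGR arrays (SD, n = 3 each). Egfr did not pass the test (log2 FC 0.23, adjusted p = 0.139 from limma). The paper does not state the species of the EGFR transgene. Whether this mouse probe set reads the transgene was not tested, so these values need not give the level of the overexpressed receptor. The calls and directions of the glycoproteins named here held without any single array.

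**Figure D5:**
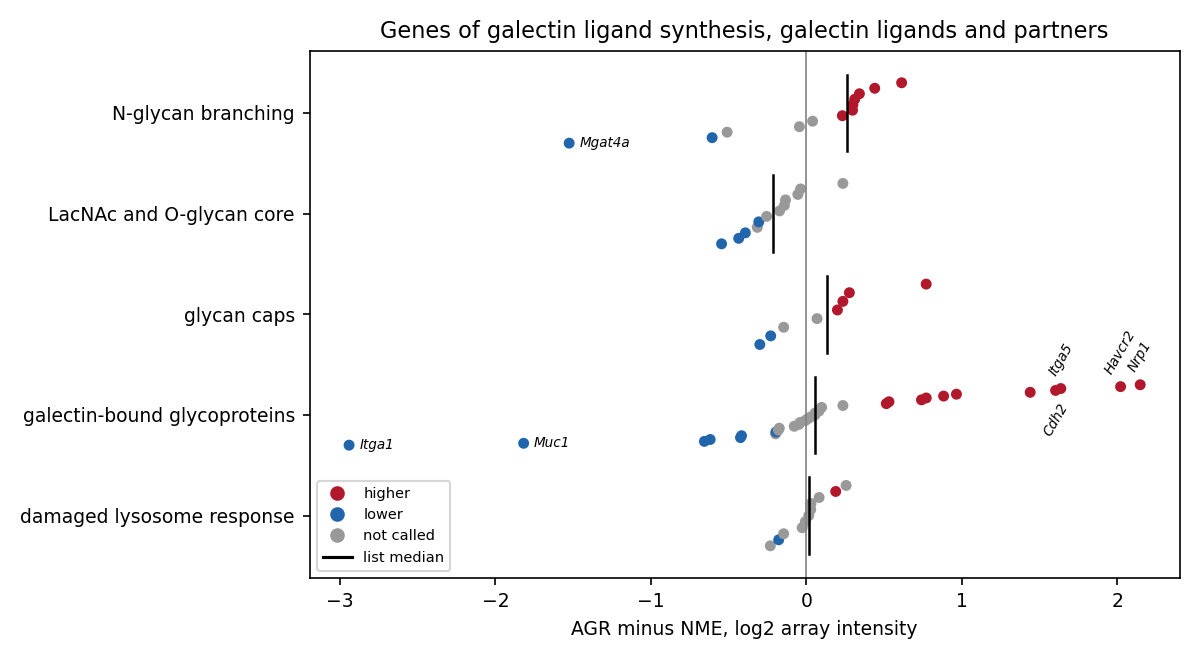
Difference between AGR and NME cells in log2 array intensity (x axis) of each measured gene in 5 lists (y axis), in red or blue where the gene was higher or lower at an adjusted p under 0.05 and in gray where it did not pass, with the list median as a black line. The medians lay at 0.26 for N-glycan branching, -0.21 for N-acetyllactosamine (LacNAc) and O-glycan core enzymes, 0.13 for glycan caps, 0.05 for galectin-bound glycoproteins and 0.01 for the damaged lysosome response, and Nrp1 and Itga1 lay farthest out.

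Inside the cell galectin-3, galectin-8 and galectin-9 mark damaged lysosomes. Of 11 measured genes of that response, Trim16, a partner of galectin-3, was higher with a log2 FC of 0.19 (adjusted p = 0.0149 from limma). Map1lc3b, which encodes the autophagy protein LC3B, was lower with a log2 FC of -0.18 (adjusted p = 0.0314 from limma). This is 18.2% called, below the 24.2% of all genes. Without NME replicate 3 or without AGR replicate 3 neither gene passed (0 of 11 called in limma, against 2 and 4 at an unadjusted p under 0.05), and without any one of 5 arrays the call of Map1lc3b was lost (adjusted p up to 0.0973). It was also lost with the replicate number as a block, under which 2 genes were higher and 0 were lower. Calcoco2, an autophagy receptor gene, had a log2 FC of -0.03 and lay under the array-wide median in both lines.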

How the data were processed

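Global gene expression was measured on 6 arrays, 3 of NME and 3 of AGR cells, with the cell line of each array taken from the sample titles. The authors deposited processed intensities, on a linear scale, for each probe set. The submitters' processing notes name MAS5, and its settings are not given in the sources used here. Since this array type has no mismatch probes, which MAS5 uses, the normalization is not settled. Median intensities lay between 190.4 and 200.8, and precision is limited by there being 3 arrays per line.

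Log2 was taken without an offset. Of 35557 probe sets, 21789 carried 1 gene symbol and were used, with the brightest one for each gene. For 21698 of them the symbol was checked by gene ID against RefSeq (GRCm38.p6), and 0 differed. AGR and NME cells were compared by lmFit and eBayes (limma 3.58.1, R 4.3.3) over all 19938 genes with Benjamini-Hochberg adjustment, and a gene was called at an adjusted p under 0.05. The fit was tested on simulated data first.

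The members, gene lists and tests were chosen with earlier results of these data known. Genes were named by a rule: all galectin family genes with a probe set, every called gene of a list with up to 6 calls, otherwise the 4 highest and 4 lowest log2 FCs among the called genes, with Nrp1, Egfr, Cdh2, Itgb1, Mgat5 and St6gal1 in any case, up to 6 called genes of each marker list, and the 5 genes nearest in pattern to Lgals4, Lgals2 and Lgals9 (predicted genes, clones without a name, small RNA genes, and receptors of the olfactory and vomeronasal families were skipped). Listed genes with no probe set of their own, such as Ggta1, B4galt2 and Optn, were not analysed here. The alternatives were quantile normalization, median centring, removal of dim genes below the array-wide 25th percentile or median, averaging a gene's probe sets, an offset of 16, each array left out in turn, the replicate number as a block, trended and robust eBayes, the methods' own two-sided test, and a FC above 2 as a further requirement.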

Additional observations from a re-analysis of the deposited data

How the results depend on the processing

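The differences of the 7 genes kept their direction under every alternative that was run for them. The log2 FC of Lgals1 moved from 0.15 to 0.17 with quantile normalization and 0.17 with median centring, and that of Lgals4 from -5.60 to -5.45 with an offset of 16, each by more than the spread between the arrays. With 1 array left out the log2 FC ranged from 0.14 to 0.15 for Lgals1, -2.10 to -1.94 for Lgals2, -0.13 to -0.06 for Lgals3, -5.63 to -5.58 for Lgals4, -0.23 to -0.16 for Lgals8, -0.65 to -0.44 for Lgals9 and -0.54 to -0.41 for Lgals3bp, and 6 to 7 genes were without overlap. The number of glycan-building enzymes called was 19, with 12 to 19 without 1 array, 10 with the two-sided test of the methods and 1 when a FC above 2 was required. The number of galectin-bound glycoproteins called was 18, with 16 to 19 without 1 array and 7 with the FC requirement. The genes called in the damaged lysosome response numbered 2, with 0 to 2 without 1 array, 1 with median centring and 0 with the FC requirement. Over all genes 4819 were called, 598 of them with a FC above 2. Where the number of calls fell with 1 array left out, fewer arrays were tested, and the cause was not tested otherwise.

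Whether the replicate numbers pair the arrays is not settled. The deviations of same-numbered arrays had correlations of -0.126, 0.327 and 0.259, and 3 of 6 arrays correlated best with their own number. With the replicate number as a block, 19 enzymes, 18 glycoproteins, 2 genes of the damaged lysosome response and 5040 genes in all were called. These are not the same calls, as St3gal6 and Map1lc3b were lost and Mgat3 and Tecpr1 gained, which gave 10 higher and 9 lower enzymes. No detection calls come with the arrays, so levels below the median of all probe sets, such as Lgals4 in AGR cells, may hold little or no signal above background.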
